A study of Homo sapiens with 12 samples.

Results

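Oxidative phosphorylation is carried out by 5 protein complexes of the mitochondrial inner membrane, and the genes for their subunits lie in the nucleus and in the mitochondrial genome. The genes described here were the protein-coding genes of the count table whose symbols start with NDUFA, NDUFB, NDUFC, NDUFS or NDUFV and a digit, are SDHA to SDHD, or start with UQCR, COX4 to COX8, ATP5, MT-ND, MT-CO, MT-CYB or MT-ATP. The rule found 103 of 58735 genes, 90 of them nuclear and 13 mitochondrially encoded (MT genes). Of these, 94 passed the filter on low counts, 81 nuclear genes and all 13 MT genes, among 14920 genes tested. The 9 nuclear genes that did not pass were COX4I2, COX6A2, COX6B2, COX7A1, COX7B2, COX8C, ATP5MGL and the read-through genes NDUFC2-KCTD14 and ATP5MF-PTCD1.

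The cells were N/TERT-2G, an immortalised human keratinocyte line, and the study concerns vulvar lichen sclerosus, an inflammatory skin disease. Cells in 6-well plates received 100 pmol per well of a negative control siRNA or of an siRNA against ATF3, a transcription factor induced by stress, against APOE, which carries lipids, or against CXCL14, a chemokine, with 5 µl of the transfection reagent Lipofectamine, and the medium was replaced after 6 h. Each of the 4 groups had 3 poly(A)-selected RNA libraries of unmodified N/TERT-2G cells, so the groups differed by the siRNA alone as far as the labels say. The labels do not say whether the 3 libraries of a group came from separate cultures, so each p-value is set against the spread of these libraries only, which may be technical.

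As background, complex I (NADH dehydrogenase), complex II (succinate dehydrogenase), complex III (the cytochrome bc1 complex) and complex IV (cytochrome c oxidase) pass electrons to oxygen, and I, III and IV pump protons as they do so. Complex V, the ATP synthase, uses the proton gradient to make ATP. The MT genes are transcribed within mitochondria from long polycistronic precursors and encode core membrane subunits of complexes I, III, IV and V, whereas all complex II subunits and most others are nuclear genes whose proteins are imported.

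Library totals ran from 16225691 to 22246755 counts, and MT RNAs of all kinds made up 1.90% to 2.76% of them. At this depth 3 counts, the floor used for detection, correspond to 0.135 to 0.185 CPM (counts scaled to library size) of the raw total, a limit of counting error only. The targeted genes matched the labels. ATF3 was at 40.4 to 43.0 CPM in the control libraries and at 11.5 to 12.5 CPM with its siRNA, APOE fell from 2.78 to 3.58 CPM to 0.105 to 0.273 CPM, and CXCL14 went from 0.364 to 0.681 CPM to 0 to 0.0544 CPM, at most 1 count per library. CXCL14 was low in the controls as well. In other settings its log2 change with its own siRNA ran from -3.99 to -0.29. The adjusted p there reached 0.317 (edgeR, DESeq2 or limma). CXCL14 was also at 4.27 to 12.3 CPM with APOE siRNA. With CXCL14 siRNA ATF3 was at 64.0 to 71.5 CPM and APOE at 5.48 to 6.37 CPM, both above all controls. The 10 keratinocyte markers, all detected, summed to 32380 to 35217 CPM in the control, 33234 to 36268 with ATF3 siRNA, 40962 to 43696 with APOE siRNA and 21964 to 23058 with CXCL14 siRNA. Fibroblast markers (2 of 6 tested) summed to 25.4 to 34.2, 32.5 to 40.7, 74.2 to 87.6 and 14.5 to 17.8 CPM in the same order, endothelial markers (1 of 5 tested) to 0.486 to 0.743, 0.690 to 0.730, 0.632 to 1.15 and 1.37 to 1.76 CPM, and melanocyte markers (2 of 6 tested) to 1.21 to 2.25, 1.47 to 2.60, 1.91 to 2.74 and 2.17 to 2.37 CPM. Immune markers (0 of 6 tested) summed to at most 0.599 CPM in any library, with PTPRC, CD3E and LYZ at 0, and TYR of the melanocyte markers was at 0. The keratinocyte and fibroblast sums lay above the control with APOE siRNA and below it with CXCL14 siRNA, and with ATF3 siRNA both ranges overlapped the control. Single markers did not all follow the sums. With CXCL14 siRNA 50% of the tested fibroblast markers were called higher and 50% lower, and 10% and 80% of the keratinocyte markers. With APOE siRNA the shares were 100% and 0% for fibroblast and 60% and 20% for keratinocyte markers. The part of these markers in the results was not tested.

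Levels of different genes were compared per length, as the deposited FPKM values (fragments scaled to gene length and library size). The length used covers all annotated exons of a gene, which can exceed the length of the RNA present and so lower its FPKM. ATP5F1A, with 10908 bases, was at 368 CPM and 33.2 FPKM, and COX8A, with 507 bases, at 74.0 CPM and 144 FPKM. Rankings of genes, medians by complex and the gap between MT and nuclear genes carry this limit. The 13 MT genes had a median level of 1063 FPKM over the 12 libraries against 19.1 FPKM for the 81 tested nuclear genes. The most abundant MT genes were those for the catalytic core of complex IV, MT-CO1 at 4472 FPKM, MT-CO2 at 3845 FPKM and MT-CO3 at 2360 FPKM. The lowest listed value was that of the ATP synthase gene MT-ATP8, at 36.0 FPKM. Of its 207 bases 22.2% are shared with MT-ATP6 on the same strand. How reads over shared bases were counted is not known here, so its level and rank are uncertain. Among nuclear genes the highest were ATP5F1B, the catalytic beta subunit of complex V, at 281 FPKM, and NDUFS5, an accessory subunit of complex I, at 235 FPKM. Next was COX8A, a small subunit of complex IV, at 144 FPKM. Of the COX8A bases 34.5% are shared with another annotated gene on the same strand. By complex the median level of the nuclear genes was 13.2 FPKM for complex I, 13.5 for II, 27.4 for III, 37.5 for IV and 20.6 for V.

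Most families of complex IV isoforms were represented by 1 form. COX4I1 was at 42.9 FPKM and COX4I2, the lung and hypoxia isoform, at 0 in all 12 libraries. COX6A1 was at 27.1 FPKM and the heart and muscle form COX6A2 at 0, COX6B1 at 81.6 and the testis form COX6B2 at 0.0437, COX7A2 at 37.5, its relative COX7A2L at 14.7 and the muscle form COX7A1 at 0.0887, COX7B at 11.1 and COX7B2 at 0, and COX8A at 144 and COX8C at 0. NDUFA4, counted here with complex IV, of which its protein is a subunit, was at 18.6 FPKM and its paralog NDUFA4L2 at 0.400. In complex III the intronless copy UQCRHL was at 1.46 FPKM and UQCRH at 80.4, and since their coding sequences differ at 4 of 273 bases, their reads may be split uncertainly. NDUFV2, a core subunit of complex I, was listed at only 0.189 FPKM, and loci annotated as its pseudogenes held 254% as many counts as the gene itself, so its level is uncertain.

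All 9 libraries with a targeting siRNA had a higher summed level of the 90 nuclear genes than any control library. The control libraries held 5042, 5198 and 5238 CPM, the ATF3 siRNA libraries 6053, 6054 and 5758, the APOE siRNA libraries 6147, 5958 and 6265, and the CXCL14 siRNA libraries 5925, 5769 and 6215. The group means were 5159 ± 103 CPM (SD, n = 3) in the control, 5955 ± 171 with ATF3 siRNA, 6123 ± 155 with APOE siRNA and 5970 ± 227 with CXCL14 siRNA, which is 115%, 119% and 116% of the control.

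The 13 MT genes summed to 23379, 19645 and 18844 CPM in the control libraries, 17907, 16643 and 17066 with ATF3 siRNA, 21167, 23723 and 24511 with APOE siRNA, and then 17668, 19245 and 18822 with CXCL14 siRNA. All 3 ATF3 siRNA libraries lay below all controls, the APOE siRNA and CXCL14 siRNA libraries overlapped them, and control library 1 stood above the other controls. The means were 83.4% of the control with ATF3 siRNA, 112% with APOE siRNA and 90.1% with CXCL14 siRNA. Summed CPM of MT over nuclear genes was 4.0 ± 0.555 (SD, n = 3) in the control, 2.89 ± 0.123 with ATF3 siRNA, 3.78 ± 0.293 with APOE siRNA and 3.12 ± 0.193 with CXCL14 siRNA. These sums carry no test, because the members were chosen with results known. On the log2 scale the MT sum with ATF3 siRNA was -0.26 from the control, and -0.16 without control library 1.

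**Figure D1:**
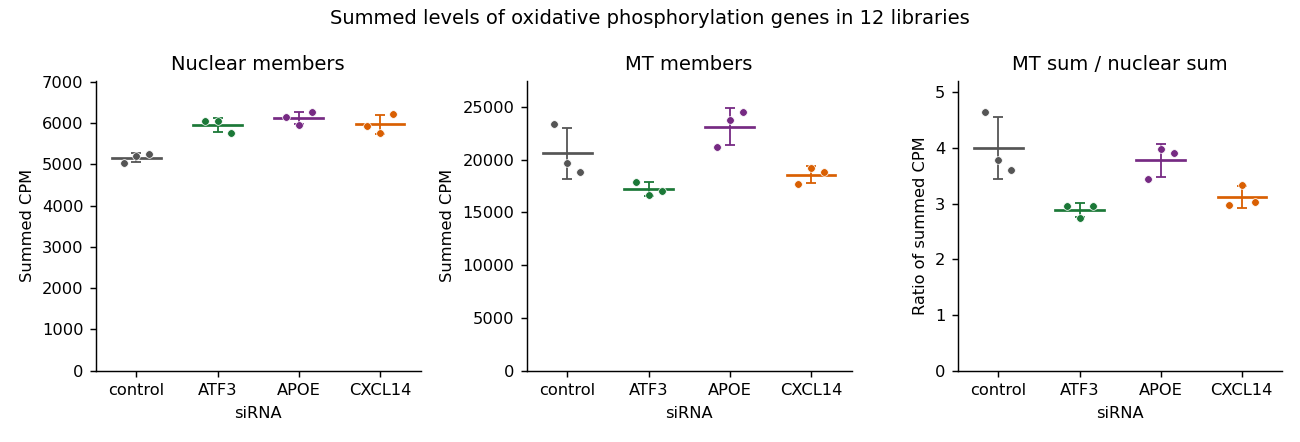
Summed CPM of the 90 nuclear genes, summed CPM of the 13 MT genes, and the ratio of the 2 sums, against the siRNA; points are libraries, bars the group mean and whiskers the SD (n = 3). The control nuclear sums (5042 to 5238 CPM) lie below all others, and the ATF3 siRNA MT sums (16643 to 17907 CPM) lie below all controls.

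By complex, the ratio of MT to nuclear CPM was lower than the control mean in every complex with ATF3 siRNA and with CXCL14 siRNA. In complex I it was 4.48 ± 0.776 in the control, 3.33 ± 0.158 with ATF3 siRNA, 4.05 ± 0.337 with APOE siRNA and 3.64 ± 0.236 with CXCL14 siRNA (SD, n = 3 for each). In complex III it was 1.53 ± 0.247, 1.02 ± 0.0603, 1.58 ± 0.111 and 1.36 ± 0.0763 in the same order. Complex IV had the highest ratio, 13.9 ± 1.48, 9.87 ± 0.605, 13.1 ± 1.07 and 9.57 ± 0.626. Complex V had the lowest, 0.728 ± 0.161, 0.467 ± 0.0267, 0.650 ± 0.0621 and 0.588 ± 0.0328. The ATF3 siRNA libraries did not overlap the control libraries in any of these 4 ratios, and neither did the CXCL14 siRNA libraries in complexes I and IV. In complex III the CXCL14 siRNA values of 1.29, 1.44 and 1.37 overlapped the control values of 1.81, 1.44 and 1.33, with 1 below all controls. In complex V the values of 0.559, 0.624 and 0.581 overlapped control values of 0.911, 0.664 and 0.609 through library 2 alone.

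Each gene was then compared with edgeR's quasi-likelihood test, and a gene was called when its adjusted p was below 0.05. With ATF3 siRNA 30 of the 81 tested nuclear genes were higher than the control and none was lower, while 11.2% of all tested genes were called higher and 9.14% lower (20.4% in either direction). At an unadjusted p below 0.05 edgeR gave 42 higher and 1 lower, and DESeq2 with adjustment gave 29 higher and 1 lower. The median log2 change of the nuclear genes was 0.18, against 0.00 over all tested genes, and 72 of 81 lay above 0. The count of 30 became 18 when control library 1 was left out and 19 when ATF3 siRNA library 2 was. Among the 13 MT genes none was higher (none at an unadjusted p below 0.05 in edgeR, none with DESeq2) and 7 were lower, with a median log2 change of -0.27, and all 13 lay below 0. That count became 1 when control library 1 was left out, 4 for control library 2, 1 for ATF3 siRNA library 2 and 2 for ATF3 siRNA library 3.

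With APOE siRNA 40 nuclear genes were higher and 3 lower, against 22.3% of all tested genes called higher and 22.5% lower (44.8% in either direction). The median log2 change was 0.22 (0.01 over all genes). Of the MT genes 3 were higher and none lower (none at an unadjusted p below 0.05 in edgeR, none with DESeq2), with a median of 0.15. These 3 were 23.1% of the MT genes, near the 22.3% of all tested genes called higher. The count of 3 became 7 without control library 1, 5 without APOE siRNA library 1 and 1 without control library 3. With CXCL14 siRNA 49 nuclear genes were higher and 5 lower, against 27.4% and 28.4% of all tested genes (55.8% in either direction), with a median of 0.28 (0.01 over all genes). Of the MT genes 2 were higher and 3 lower, with a median of -0.20, and the 3 became 1 without control library 1 and 6 without control library 3. The 2 became 1 without any 1 of control libraries 2 and 3 and CXCL14 siRNA libraries 2 and 3, and the 5 nuclear genes called lower became 3 without control library 2, control library 3 or CXCL14 siRNA library 2. The 3 comparisons share the control libraries.

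**Figure D2:**
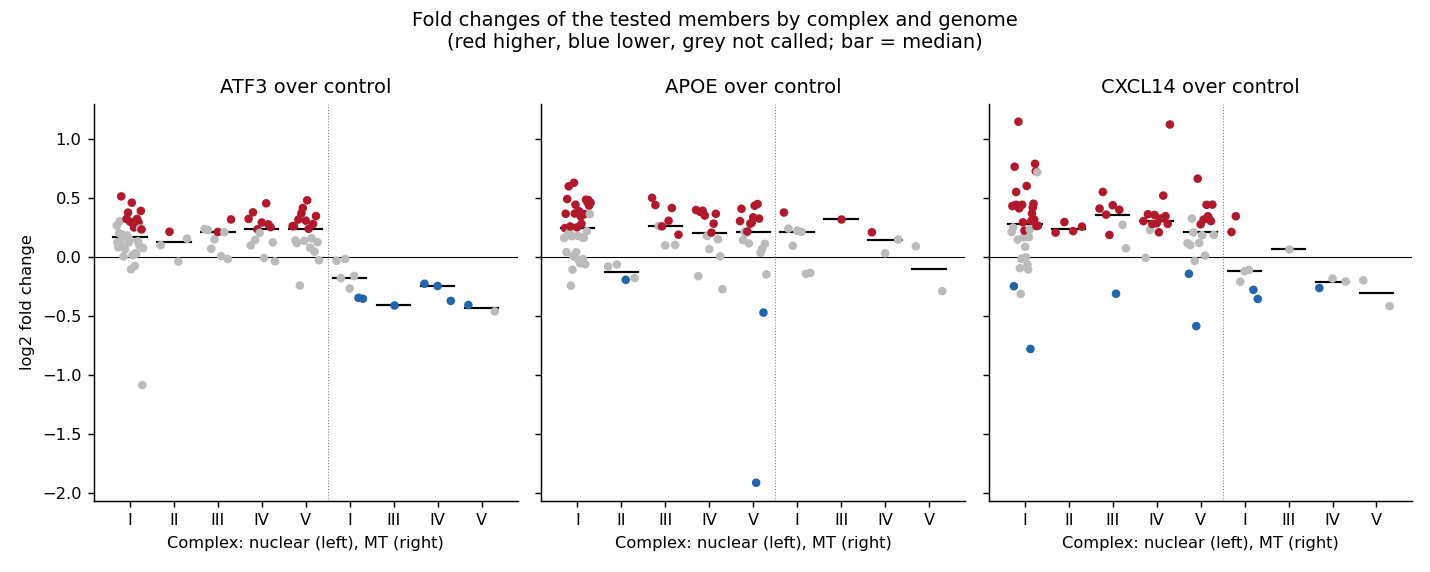
Log2 fold change over the control (y axis) of each tested gene by complex, nuclear genes left and MT genes right of the dotted line, for the 3 siRNAs; red points were called higher, blue lower, grey not called, and bars are medians. Nuclear medians lie above 0 except for complex II with APOE siRNA (-0.13), and all 13 MT points lie below 0 with ATF3 siRNA.

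In all, 14 of the 81 nuclear genes (17.3%) were called higher with each of the 3 targeting siRNAs, against 654 of all 14920 tested genes (4.38%), in comparisons that share the control libraries. They belong to complex I (NDUFA3, NDUFB2, NDUFB7, NDUFS3, NDUFS5, NDUFS8, NDUFV1), complex IV (COX4I1, COX5B, COX6B1, COX7B, COX7C) and complex V (ATP5MC2, ATP5MD), and none to complex II or III. A further 25 were called higher with 2 of the siRNAs, 27 with 1 and 15 with none. The 8 nuclear genes called lower with at least 1 siRNA were ATP5F1B, ATP5MC1, ATP5MF, ATP5PF, NDUFA12, NDUFS1, SDHC and UQCRFS1. Of these, 6 were called higher with another siRNA. For the counts other than 14 the share over all tested genes was not computed, so they are description only. Per comparison, 9.14%, 22.5% and 28.4% of all tested genes were called lower with ATF3, APOE and CXCL14 siRNA.

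Promoter sequences are shown for 2 of the 14 genes, because nuclear genes of this system are known for binding sites of NRF1, of ETS factors such as GABP, and of YY1 near their start sites. They are from the RefSeq table (GRCh38.p14) and cover bases before the gene's start, with the ETS core CCGGAAG and the NRF1 core GCATGCG in capitals where they occur. The NDUFB7 stretch is chr19:14572067-14572216 on the minus strand and the COX5B stretch is chr2:97645912-97646039 on the plus strand.
NDUFB7: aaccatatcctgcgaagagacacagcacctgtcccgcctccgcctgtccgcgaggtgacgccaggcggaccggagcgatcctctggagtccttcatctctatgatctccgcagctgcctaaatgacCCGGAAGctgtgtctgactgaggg
COX5B: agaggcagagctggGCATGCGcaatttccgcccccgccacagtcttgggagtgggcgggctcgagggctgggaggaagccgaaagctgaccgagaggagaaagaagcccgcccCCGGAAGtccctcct
NDUFB7, a subunit of the complex I membrane arm, has 1 ETS core close to its start, and COX5B, a subunit of complex IV, has an NRF1 core and an ETS core. They were chosen because they hold cores. Of the 14 genes 13 matched the table, and 4 of these (COX7B, NDUFB2, NDUFS8 and NDUFV1) had none of the NRF1, ETS and YY1 cores in their windows. Over the 15 windows of the 13 genes the NRF1 core was in 3, the ETS core in 6 and the YY1 core AAGATGG in 2.

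RefSeq promoter windows, 250 bases before to 50 bases after a start, were found for 70 of the 90 nuclear genes, 83 windows in all. Each motif was searched on both strands. The NRF1 core GCATGCG was in 15 of the 83 windows (18.1%), against 3.91% of all 35116 windows and 5.51% of the 15810 windows of tested genes. The ETS core CCGGAAG was in 22 (26.5%, against 10.3% and 16.7%) and the YY1 core AAGATGG in 19 (22.9%, against 5.84% and 6.90%). At least 1 of these 3 cores was in 42 windows (50.6%, against 18.3% of all windows and 26.0% of those of tested genes). The GC box GGGCGG was in 62.7% (45.0% of all windows, 65.2% of those of tested genes), CCAAT in 34.9% (34.6% of all windows) and TATAAA in 8.43% (11.5% of all windows, 6.54% of those of tested genes). These matches are of letters in the windows and say nothing of whether a factor was bound in these cells.

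In complex I, 10 of the 36 tested nuclear genes rose with ATF3 siRNA and 18 with APOE siRNA, and none fell with either. With CXCL14 siRNA 20 rose and 2 fell. In this order the shares higher were 27.8%, 50% and 55.6%, against 11.2%, 22.3% and 27.4% of all tested genes. The shares lower were 0%, 0% and 5.56%, against 9.14%, 22.5% and 28.4%. NDUFB7 (chr19:14566078-14572062) was at 43.1, 51.3 and 51.1 CPM in the controls, 65.9, 68.1 and 66.2 with ATF3 siRNA, 63.1, 64.0 and 63.3 with APOE siRNA, and then 69.4, 72.5 and 79.0 with CXCL14 siRNA. All 9 values with a targeting siRNA lay above the controls, with edgeR log2 changes of 0.46 ± 0.07 (SE, adjusted p = 0.00041), 0.39 ± 0.07 (adjusted p = 0.000497) and 0.60 ± 0.07 (adjusted p = 3.55e-06). NDUFA3, another membrane-arm subunit, rose by 0.52 ± 0.10, 0.60 ± 0.10 and 0.55 ± 0.10. NDUFV1, the flavin-binding core subunit that accepts electrons from NADH, rose by 0.23 ± 0.06, 0.44 ± 0.06 and 0.26 ± 0.06.

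NDUFB10, a membrane-arm subunit, separated the siRNAs. It was at 44.9, 48.7 and 50.6 CPM in the controls, 58.8, 61.9 and 59.9 with ATF3 siRNA, 70.6, 74.5 and 78.3 with APOE siRNA, and then 45.0, 47.0 and 50.8 with CXCL14 siRNA. The APOE and ATF3 siRNA libraries lay above the controls. The CXCL14 siRNA libraries overlapped the controls, with library 3 just above the highest of them. The APOE siRNA over CXCL14 siRNA log2 difference was 0.65 ± 0.07 (edgeR adjusted p = 8.34e-07). With CXCL14 siRNA the largest rises among called genes above 20 CPM were those of 2 iron-sulphur subunits that pass electrons towards ubiquinone, NDUFS7 by 0.79 ± 0.09 and NDUFS8 by 0.73 ± 0.11. Of the NDUFS7 bases 49.1% are shared with genes on the opposite strand, and the sources used here do not say whether the counting used strand. NDUFV3 rose by 0.46 ± 0.07 with APOE siRNA and NDUFA10 by 0.43 ± 0.06 with CXCL14 siRNA. NDUFA7 was at 0.181, 0.607 and 0.495 CPM in the controls and 0.790, 1.03 and 1.04 with CXCL14 siRNA, a difference of 1.15 ± 0.40 (edgeR adjusted p = 0.0214, up to 0.113 in other settings) at a few counts per library.

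The largest called fall in complex I was that of NDUFS1 (chr2:206114817-206159603), the largest core subunit of the matrix arm, with CXCL14 siRNA. It was at 88.8, 88.2 and 81.5 CPM in the controls, 93.5, 88.8 and 82.2 with ATF3 siRNA, 90.0, 82.7 and 82.7 with APOE siRNA, and then 52.2, 49.5 and 48.8 with CXCL14 siRNA. The CXCL14 siRNA libraries lay below the other 9, which overlapped each other. Its level with CXCL14 siRNA was 58.2% of the control, a log2 change of -0.78 ± 0.07 (edgeR adjusted p = 7.57e-08). NDUFA12, an accessory subunit, was at 42.0, 42.2 and 42.3 CPM in the controls and 37.2, 34.0 and 35.3 with CXCL14 siRNA, a change of -0.25 ± 0.09 (edgeR adjusted p = 0.0358, up to 0.133 in other settings).

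In complex II, which has no MT gene, all 4 genes rose with CXCL14 siRNA, SDHA (the flavoprotein with the succinate site) by 0.21 ± 0.06, SDHB (the iron-sulphur subunit) by 0.30 ± 0.06, and the membrane anchors SDHC by 0.22 ± 0.07 and SDHD by 0.26 ± 0.09. With APOE siRNA none rose and SDHC fell by 0.19 on the log2 scale, while SDHA changed by -0.08 ± 0.06, SDHB by -0.06 ± 0.06 and SDHD by -0.18 ± 0.09, which were not called. With ATF3 siRNA only SDHB was called, at 0.22 ± 0.06. Of all tested genes 11.2%, 22.3% and 27.4% were called higher with ATF3, APOE and CXCL14 siRNA, and 22.5% lower with APOE siRNA. In other settings (edgeR, DESeq2 or limma) the adjusted p reached 0.135 for SDHC with APOE siRNA and 0.132 for SDHB with ATF3 siRNA. With CXCL14 siRNA it reached 0.0524, 0.0503 and 0.0696 for SDHC, SDHA and SDHD.

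The summed CPM of the 4 genes was 321, 308 and 317 in the controls, 342, 337 and 329 with ATF3 siRNA, 288, 282 and 301 with APOE siRNA, and then 371, 368 and 375 with CXCL14 siRNA. The 4 groups did not overlap. Directly compared, all 4 genes were lower with APOE siRNA than with CXCL14 siRNA, by log2 differences of -0.29 ± 0.06 for SDHA, -0.36 ± 0.06 for SDHB, -0.41 ± 0.07 for SDHC and -0.44 ± 0.09 for SDHD, with edgeR adjusted p between 7.11e-05 and 0.000683. In that comparison 26.6% of all tested genes were called lower. Loci annotated as SDHA pseudogenes held 10.8% as many counts as SDHA.

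In complex III, 2 of 9 nuclear genes rose with ATF3 siRNA, 6 with APOE siRNA, and 6 rose and 1 fell with CXCL14 siRNA. The shares higher were 22.2%, 66.7% and 66.7%, against 11.2%, 22.3% and 27.4% of all tested genes. The 1 lower gene was 11.1%, against 28.4% of all tested genes. UQCRC2, a core subunit, rose by 0.21 ± 0.06 with ATF3 siRNA and 0.44 ± 0.06 with CXCL14 siRNA, UQCRQ by 0.32 ± 0.07 with ATF3 siRNA, UQCR10 by 0.50 ± 0.09 and 0.41 ± 0.09 with APOE and CXCL14 siRNA, UQCR11 by 0.44 ± 0.09 and 0.55 ± 0.09, and the hinge subunit UQCRH by 0.42 ± 0.08 and 0.40 ± 0.08. For UQCRC2 with ATF3 siRNA the adjusted p reached 0.104 in other settings. UQCRFS1 (chr19:29205321-29213541), the Rieske iron-sulphur protein that takes electrons from ubiquinol, went both ways. It was at 93.3, 94.0 and 99.9 CPM in the controls, 85.8, 103 and 99.8 with ATF3 siRNA, 116, 111 and 129 with APOE siRNA, and then 75.8, 75.5 and 80.0 with CXCL14 siRNA. The APOE siRNA libraries lay above all other libraries and the CXCL14 siRNA libraries below all others. The log2 changes were 0.31 ± 0.08 (edgeR adjusted p = 0.00372) with APOE siRNA and -0.31 ± 0.08 (adjusted p = 0.00261) with CXCL14 siRNA.

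In complex IV, 7 of 13 tested nuclear genes rose with ATF3 siRNA, 7 with APOE siRNA and 11 with CXCL14 siRNA. None fell with any. The shares higher were 53.8%, 53.8% and 84.6%, against 11.2%, 22.3% and 27.4% of all tested genes. Called lower were 9.14%, 22.5% and 28.4% of all tested genes. COX4I1 (chr16:85798633-85807044), the regulatory subunit that binds ATP, was at 176, 175 and 170 CPM in the controls, 223, 216 and 214 with ATF3 siRNA, 226, 234 and 228 with APOE siRNA, and then 200, 215 and 229 with CXCL14 siRNA. All 9 values with a targeting siRNA lay above the controls, with log2 changes of 0.32 ± 0.06, 0.40 ± 0.06 and 0.31 ± 0.06. COX5B rose by nearly the same amount with each siRNA, 0.38 ± 0.07, 0.38 ± 0.07 and 0.36 ± 0.07, with edgeR adjusted p of 0.000913, 0.000233 and 0.000237. Among the smaller subunits, 3 rose with every siRNA, in the order ATF3, APOE and CXCL14 siRNA COX7B by 0.46 ± 0.10, 0.28 ± 0.10 and 0.33 ± 0.10, COX6B1 by 0.24 ± 0.07, 0.35 ± 0.07 and 0.28 ± 0.07, and COX7C by 0.28 ± 0.09, 0.37 ± 0.09 and 0.52 ± 0.09. COX7A2 rose by 0.29 ± 0.07 with both ATF3 and CXCL14 siRNA and COX8A by 0.25 ± 0.07 and 0.35 ± 0.07 with these siRNAs, while COX6A1 rose by 0.39 ± 0.10 with APOE siRNA. NDUFA4L2, known as a hypoxia-induced paralog of NDUFA4, was at 0.785, 1.28 and 0.681 CPM in the controls and 1.58, 2.01 and 2.39 with CXCL14 siRNA, a rise of 1.13 ± 0.30 (edgeR adjusted p = 0.00495) from a low level.

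In complex V, 10 of 19 nuclear genes rose with ATF3 siRNA, 9 rose and 2 fell with APOE siRNA. With CXCL14 siRNA 8 rose and 2 fell. The shares higher were 52.6%, 47.4% and 42.1%, against 11.2%, 22.3% and 27.4% of all tested genes. The shares lower were 0%, 10.5% and 10.5%, against 9.14%, 22.5% and 28.4%. The largest difference of any tested member from the control was the fall of ATP5MF (chr7:99448475-99466331), the f subunit of the membrane part, with APOE siRNA. ATP5MF was at 53.8, 50.9 and 49.8 CPM in the controls, 66.9, 58.5 and 56.9 with ATF3 siRNA, 14.4, 12.4 and 14.2 with APOE siRNA, and then 66.5, 59.0 and 67.1 with CXCL14 siRNA. The APOE siRNA libraries lay far below the other 9, at 26.5% of the control, a log2 change of -1.92 ± 0.09 (edgeR adjusted p = 2e-10). With CXCL14 siRNA it rose by 0.32 ± 0.08 (adjusted p = 0.00301), and with ATF3 siRNA by 0.24 ± 0.08 (adjusted p = 0.0453, up to 0.207 in other settings). Of its bases 8.57% are shared with the read-through gene ATP5MF-PTCD1 and with PTCD1 on the same strand.

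ATP5PF (chr21:25716503-25735673), coupling factor 6 of the stalk that joins the membrane and the catalytic part, also fell with APOE siRNA. It was at 34.8, 33.0 and 32.3 CPM in the controls, 44.9, 45.9 and 36.6 with ATF3 siRNA, 24.8, 21.2 and 26.3 with APOE siRNA, and then 44.0, 37.2 and 42.5 with CXCL14 siRNA. The APOE siRNA libraries lay below and the other siRNA libraries above the controls, with log2 changes of -0.47 ± 0.10 (edgeR adjusted p = 0.00148), 0.35 ± 0.10 with ATF3 siRNA (adjusted p = 0.0216, up to 0.0961 in other settings) and 0.31 ± 0.10 with CXCL14 siRNA (adjusted p = 0.0158, up to 0.0642). Of its bases 23.1% are shared with GABPA and JAM2 on the opposite strand.

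In the catalytic core, ATP5F1B (chr12:56638175-56646068), the beta subunit, was at 583, 595 and 617 CPM in the controls, 724, 705 and 725 with ATF3 siRNA, 808, 774 and 803 with APOE siRNA, and then 545, 519 and 562 with CXCL14 siRNA. The 4 groups did not overlap, and APOE siRNA was highest and CXCL14 siRNA lowest. The log2 changes were 0.26 ± 0.05 (edgeR adjusted p = 0.0031), 0.41 ± 0.05 (adjusted p = 1.56e-05) and -0.14 ± 0.05 (adjusted p = 0.0365, up to 0.184 in other settings). ATP5F1A, the alpha subunit, rose by 0.26 ± 0.06 with ATF3 siRNA and 0.31 ± 0.06 with APOE siRNA. With CXCL14 siRNA it was at 338, 348 and 375 CPM, above the controls at 327, 319 and 331 CPM, a difference of 0.12 ± 0.06 that was not called (edgeR adjusted p = 0.0993). ATP5F1C and ATP5F1D, the gamma and delta subunits, were called with none of the siRNAs. With CXCL14 siRNA ATP5PB, a stalk subunit, rose by 0.35 ± 0.06 and ATP5MPL, a small membrane subunit, by 0.44 ± 0.09. ATP5IF1, the inhibitor of the enzyme's reverse reaction, was at 52.1, 60.9 and 54.9 CPM in the controls, 45.7, 51.4 and 44.9 with ATF3 siRNA and 71.3, 62.2 and 61.6 with APOE siRNA. It rose by 0.22 ± 0.08 with APOE siRNA (edgeR adjusted p = 0.0429, up to 0.206 in other settings), its value with ATF3 siRNA was -0.24 ± 0.08 (adjusted p = 0.0522), and the direct ATF3 over APOE difference was -0.46 ± 0.08 (adjusted p = 0.000355).

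**Figure D3:**
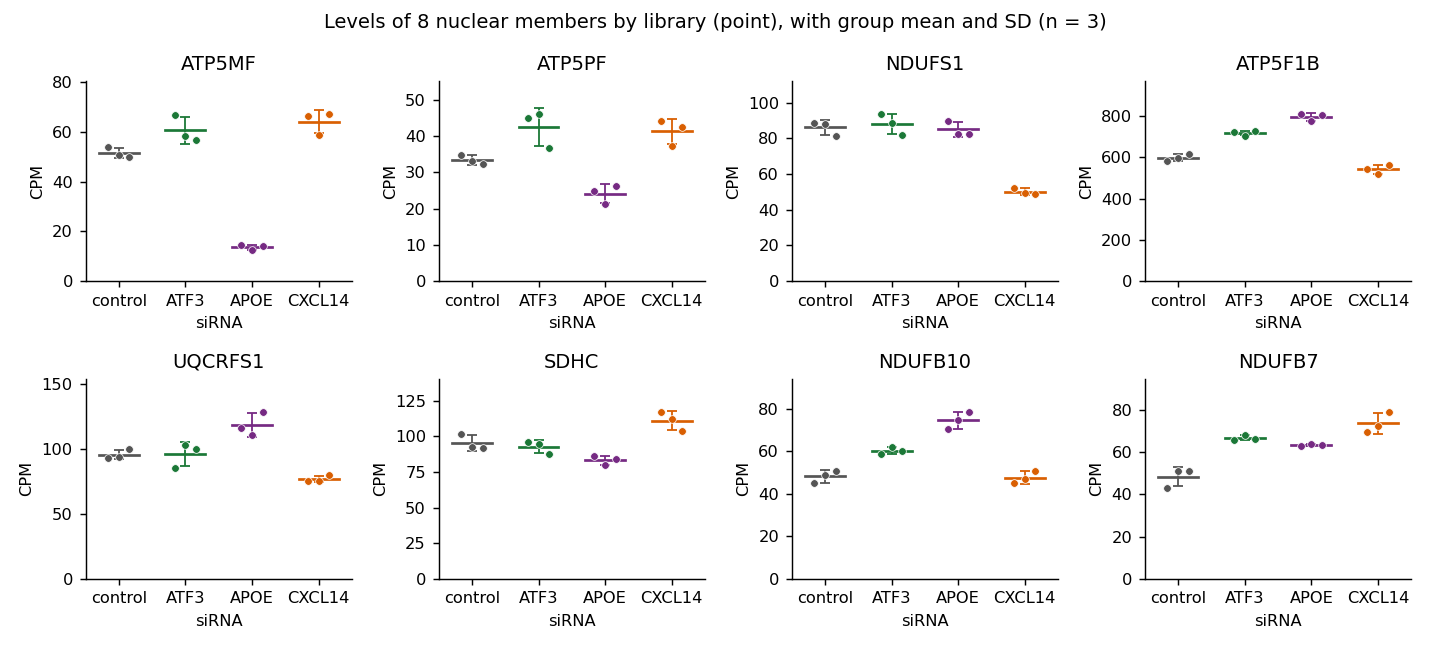
CPM (y axis, from 0) of 8 nuclear genes in each library (points) by siRNA, with the group mean and SD (n = 3). ATP5MF at 12.4 to 14.4 CPM with APOE siRNA and NDUFS1 at 48.8 to 52.2 CPM with CXCL14 siRNA lie below all other libraries, and UQCRFS1 and ATP5F1B are highest with APOE siRNA and lowest with CXCL14 siRNA.

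The c subunit of complex V, which forms the proton-driven ring, is encoded by ATP5MC1, ATP5MC2 and ATP5MC3, whose mature proteins are known to be the same. The last 120 coding bases of each (GENCODE 29 transcripts) are printed to show how far the sequences differ where the protein is shared, with capitals at the 30 positions where the 3 differ.
ATP5MC1: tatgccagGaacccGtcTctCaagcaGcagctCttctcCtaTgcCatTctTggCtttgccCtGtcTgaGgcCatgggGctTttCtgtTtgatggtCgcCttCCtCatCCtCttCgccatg
ATP5MC2: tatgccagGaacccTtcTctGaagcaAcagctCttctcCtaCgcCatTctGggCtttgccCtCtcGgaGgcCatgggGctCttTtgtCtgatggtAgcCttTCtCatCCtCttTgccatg
ATP5MC3: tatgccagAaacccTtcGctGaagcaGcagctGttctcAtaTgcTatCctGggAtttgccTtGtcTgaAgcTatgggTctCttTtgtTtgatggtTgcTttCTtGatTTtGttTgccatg
ATP5MC1 and ATP5MC2 differ at 13 of these 120 bases, and ATP5MC3 differs from each at 24.

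ATP5MC1 and ATP5MC2 changed in opposite directions with CXCL14 siRNA. ATP5MC1 was at 35.4, 33.4 and 36.3 CPM in the controls, 46.1, 44.9 and 45.0 with ATF3 siRNA, 38.7, 35.4 and 39.9 with APOE siRNA, and then 23.6, 22.3 and 24.1 with CXCL14 siRNA. ATP5MC2 was at 54.2, 59.1 and 58.8 CPM in the controls, 76.2, 72.7 and 80.8 with ATF3 siRNA, 67.2, 66.1 and 76.2 with APOE siRNA, and then 88.3, 86.1 and 98.4 with CXCL14 siRNA. CXCL14 siRNA thus held the lowest ATP5MC1 and the highest ATP5MC2 values of all libraries. The log2 changes with CXCL14 siRNA were -0.59 ± 0.07 for ATP5MC1 (edgeR adjusted p = 3.37e-06), 0.67 ± 0.08 for ATP5MC2 (adjusted p = 1.56e-06) and 0.12 ± 0.06 for ATP5MC3 (adjusted p = 0.128). With ATF3 siRNA ATP5MC1 and ATP5MC2 rose by 0.37 ± 0.07 and 0.42 ± 0.08. With APOE siRNA ATP5MC2 and ATP5MC3 rose by 0.28 ± 0.08 and 0.29 ± 0.06.

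As a share of the 3 genes' summed CPM, ATP5MC1 was 14.8% ± 0.372 (SD, n = 3) in the control and 8.61% ± 0.362 with CXCL14 siRNA, and ATP5MC2 was 24.2% ± 1.19 and 33.5% ± 0.170. The sum itself was 237 ± 8.16 CPM in the control, 281 ± 0.911 with ATF3 siRNA, 285 ± 11.97 with APOE siRNA and 271 ± 19.6 with CXCL14 siRNA.

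**Figure D4:**
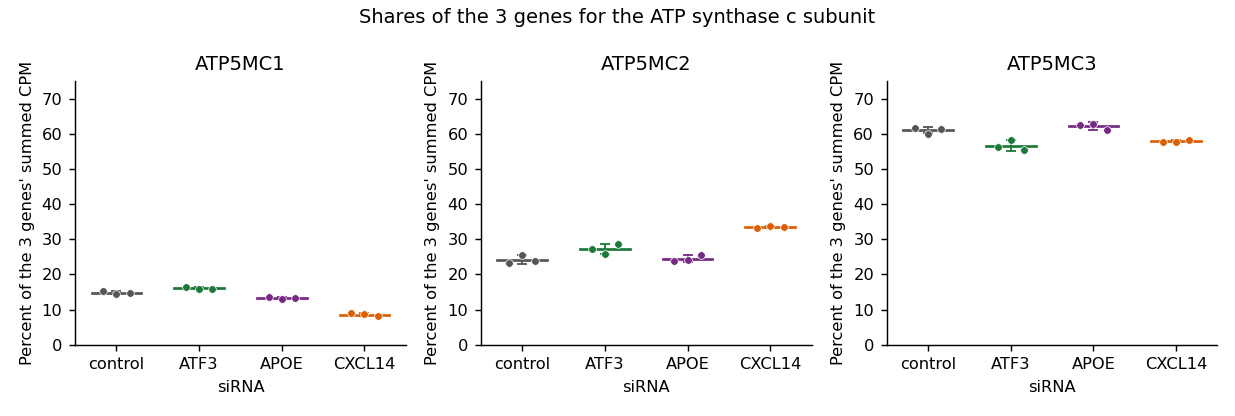
Share of the 3 c subunit genes' summed CPM (y axis, percent) taken by each gene in every library, by siRNA, with the group mean and SD (n = 3). With CXCL14 siRNA the ATP5MC1 share is lowest (8.21% to 8.90%) and the ATP5MC2 share highest (33.3% to 33.7%).

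Among the MT genes, the 7 called lower with ATF3 siRNA were MT-CYB, the only MT gene of complex III, by -0.41 ± 0.09 (edgeR adjusted p = 0.00501), MT-ATP6, the proton channel of complex V, by -0.41 ± 0.11, the 3 complex IV genes MT-CO1, MT-CO2 and MT-CO3 by -0.23 ± 0.07, -0.25 ± 0.08 and -0.37 ± 0.11, and the complex I genes MT-ND5 and MT-ND6 by -0.35 ± 0.11 and -0.35 ± 0.12. The other complex I genes did not pass: MT-ND1 was at -0.03 ± 0.07, MT-ND2 at -0.18 ± 0.10, MT-ND3 at -0.02 ± 0.10, MT-ND4 at -0.27 ± 0.09 and MT-ND4L at -0.16 ± 0.10, and neither did MT-ATP8 at -0.46 ± 0.20. MT-CYB alone was still called without control library 1.

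MT-CYB was at 1311, 1071 and 1005 CPM in the controls, 918, 820 and 811 with ATF3 siRNA, 1299, 1443 and 1505 with APOE siRNA, and then 1106, 1217 and 1232 with CXCL14 siRNA. The ATF3 siRNA libraries lay below all 9 others. The APOE siRNA libraries overlapped the controls through control library 1, with a rise of 0.33 ± 0.09 (edgeR adjusted p = 0.00821, up to 0.0551 in other settings). MT-ND1, a complex I subunit at the ubiquinone site, was at 752, 705 and 703 CPM in the controls, 725, 663 and 727 with ATF3 siRNA, 836, 966 and 1007 with APOE siRNA, and then 786, 866 and 852 with CXCL14 siRNA. It rose by 0.38 ± 0.07 (edgeR adjusted p = 0.000505) with APOE siRNA and by 0.21 ± 0.07 (adjusted p = 0.0201, up to 0.0810) with CXCL14 siRNA, and both groups lay above all controls.

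With CXCL14 siRNA 15.4% of the MT genes were called higher and 23.1% lower, against 27.4% and 28.4% of all tested genes. MT-ND2 rose by 0.35 ± 0.10 along with MT-ND1. On the log2 scale MT-CO1 fell by 0.26, MT-ND5 by 0.28 and MT-ND6 by 0.36. MT-ND6 is encoded on the light strand, unlike the other MT genes here. Since the use of strand in counting is not known, MT-ND6 counts in any library may include RNA of the opposite strand. MT-CO1, the largest and catalytic subunit of complex IV, was at 8029, 7118 and 6721 CPM in the controls, 6537, 6037 and 6116 with ATF3 siRNA, 7968, 8802 and 8534 with APOE siRNA, and then 5857, 6361 and 6012 with CXCL14 siRNA. The ATF3 and CXCL14 siRNA libraries lay below all controls and overlapped each other. In other settings (edgeR, DESeq2 or limma) the adjusted p with CXCL14 siRNA reached 0.22 for MT-ND5 and 0.13 for MT-ND6. The adjusted p of MT-CO1 was 0.0332, 0.0235 and 0.00486 with ATF3, APOE and CXCL14 siRNA, and reached 0.173, 0.172 and 0.0682 in other settings. Loci annotated as their pseudogenes held 7.77% as many counts as MT-ND2 and 6.26% as many as MT-ATP6.

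**Figure D5:**
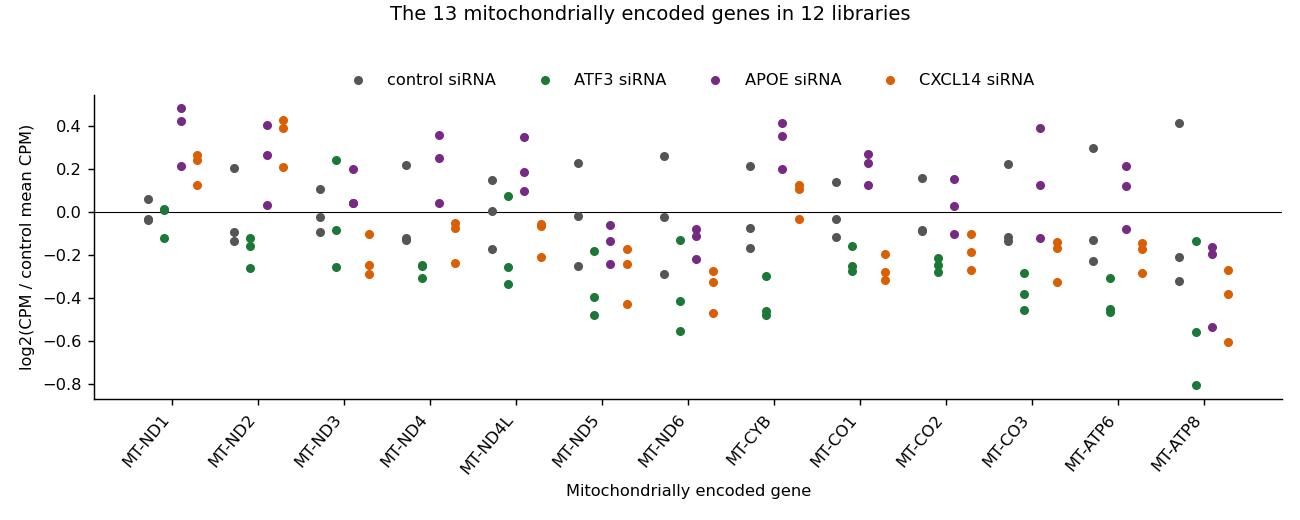
Log2 of each library's CPM over the control mean (y axis) for the 13 MT genes, coloured by siRNA; each point is a library. The ATF3 siRNA points of MT-CYB (811 to 918 CPM) lie below all other libraries, and control library 1 is the highest control for every gene.

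The siRNAs were also compared with each other. ATF3 siRNA against APOE siRNA gave 9 of 13 MT genes lower and none higher, with a median log2 difference of -0.41, against 17.9% of all tested genes called lower and 20.3% higher (38.2% in either direction). MT-CYB differed by -0.74 ± 0.09 and MT-CO1 by -0.44 ± 0.07, and this count ranged from 8 to 11 with any 1 library left out. Of the 81 nuclear genes 9 were higher and 12 lower. The lower ones included NDUFV3 by -0.39 ± 0.07, and the higher ones ATP5MF by 2.16 ± 0.09 and ATP5PF by 0.82 ± 0.10. The 9 became 16 without ATF3 siRNA library 3 and the 12 became 6 without APOE siRNA library 3.

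APOE siRNA against CXCL14 siRNA gave 8 MT genes higher and none lower, MT-CO1 by 0.47 ± 0.07 and MT-ND4 by 0.34 ± 0.09, against 28.9% of all tested genes called higher and 26.6% lower (55.5% in either direction). The 8 became 3 without APOE siRNA library 3, 4 without APOE siRNA library 2, 4 without CXCL14 siRNA library 1 and 5 without CXCL14 siRNA library 2. Of the nuclear genes 14 were higher, among them NDUFS1 by 0.76 ± 0.07 and ATP5F1B by 0.55 ± 0.05, and 22 lower, and the 14 became 9 without CXCL14 siRNA library 1 or 2. With libraries scaled by their totals alone 17.9% of the called nuclear genes were higher, against 38.9% with the main scaling, and over all genes 39.6% against 52.0%.

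ATF3 siRNA against CXCL14 siRNA gave 3 MT genes lower and none higher, among them MT-CYB by -0.48 ± 0.09 and MT-ND2 by -0.53 ± 0.10, against 25.3% of all tested genes called lower and 28.4% higher (53.7% in either direction). The 3 lower were 23.1% of the MT genes, near the 25.3% of all tested genes. Of the nuclear genes 9 were higher, led by ATP5MC1 at 0.96 ± 0.07 and NDUFS1 at 0.81 ± 0.07. Another 24 were lower, led by NDUFS7 at -0.55 ± 0.09 and NDUFA10 at -0.31 ± 0.06. The 24 became 13 without CXCL14 siRNA library 3. Scaled by totals alone, 14.3% of the called nuclear genes were higher against 27.3%, and over all genes 41.5% against 52.9%.

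Other genes of the pathway were read as lists, beside the shares of all tested genes called higher and lower, which were 11.2% and 9.14% with ATF3 siRNA, 22.3% and 22.5% with APOE siRNA, then 27.4% and 28.4% with CXCL14 siRNA. CYC1, NDUFAB1 and CYCS, which are subunits or carriers outside the symbol rule, gave no lower call and 2, 1 and 2 higher calls with the ATF3, APOE and CXCL14 siRNAs. CYC1, cytochrome c1 of complex III, rose by 0.32 ± 0.07, 0.39 ± 0.07 and 0.21 ± 0.07 (edgeR adjusted p for the last 0.0222, up to 0.128 in other settings). Of 16 complex I assembly factors 3 were higher and none lower with ATF3 siRNA, 5 and 1 with APOE siRNA, and then 4 and 5 with CXCL14 siRNA, where ECSIT rose by 0.75 ± 0.07 and NDUFAF3 fell by 0.80 on the log2 scale. With CXCL14 siRNA these are 25% and 31.2% of the list, near the shares of all genes. Of 38 tested assembly factors of complexes II to V 9 were higher and none lower, 14 and 2, and 10 and 9 in the same order, the last being 26.3% and 23.7%, again near the shares of all genes. With CXCL14 siRNA the complex IV factors COX19 and COA6 changed by 0.86 ± 0.08 and -1.33 ± 0.13, and with APOE siRNA the complex III factor UQCC1 changed by -0.51 ± 0.07.

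Of 26 genes of mitochondrial transcription and RNA maturation 5 were higher and none lower with ATF3 siRNA, 8 and 3 with APOE siRNA, and then 11 and 8 with CXCL14 siRNA (19.2% and none, 30.8% and 11.5%, 42.3% and 30.8% of the list). TFAM, which packages mitochondrial DNA and starts its transcription, fell with CXCL14 siRNA, with a log2 change of -1.19 ± 0.09 (edgeR adjusted p = 1.34e-08), and so did GRSF1, a protein of mitochondrial RNA granules, at -2.49 ± 0.12 (adjusted p = 7.02e-11). With ATF3 siRNA SLIRP, which with LRPPRC stabilises MT mRNAs, rose by 0.48 ± 0.11 and PNPT1, an RNA-degrading enzyme, by 0.42 ± 0.09. The part of these genes in the MT levels was not tested. Of 10 genes of mitochondrial DNA maintenance 4 were higher and none lower, 4 and 1, and 7 and none (40%, 40% and 70% higher). RRM2B, a p53-responsive ribonucleotide reductase subunit, rose with all 3 siRNAs, by 0.69 ± 0.07, 1.02 ± 0.07 and 1.27 ± 0.07.

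Of the regulators of mitochondrial biogenesis 7 of 10 were tested, and PPARGC1A was at 0 in every library. With ATF3 siRNA 2 were higher and none lower, APOE siRNA gave 1 in each direction, and CXCL14 siRNA gave 3 lower (42.9% of the 7) and none higher. PPARGC1B, a coactivator, rose by 0.50 ± 0.12 with ATF3 siRNA and 0.60 ± 0.12 with APOE siRNA, and with CXCL14 siRNA NRF1 changed by -0.47 ± 0.10 and GABPB1, a GABP subunit, by -0.35 ± 0.09. Of 17 genes of the citric acid cycle and pyruvate dehydrogenase 5 were higher and 1 lower, 4 and 4, and 8 and 3 in the order ATF3, APOE and CXCL14 siRNA (29.4% and 5.88%, 23.5% and 23.5%, 47.1% and 17.6% of the list). FH, the fumarase of the cycle, changed by -1.07 ± 0.06 with CXCL14 siRNA, and OGDH and SUCLG2 by -0.62 ± 0.06 and -0.63 ± 0.08 with APOE siRNA.

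Ribosomal protein genes were also mostly called higher where they were called. Of 80 tested cytosolic ribosomal protein genes 50, 71 and 65 were higher with ATF3, APOE and CXCL14 siRNA and 0, 0 and 3 lower (62.5%, 88.8% and 81.2% higher, against 11.2%, 22.3% and 27.4% of all tested genes), with medians of 0.25, 0.40 and 0.36, against 0.18, 0.22 and 0.28 for the nuclear members. Of 78 mitochondrial ribosomal protein genes 19, 31 and 30 were higher and 0, 9 and 7 lower (24.4%, 39.7% and 38.5% higher), with medians of 0.16, 0.15 and 0.12. Among the latter MRPS33 changed by -1.80 ± 0.15 with APOE siRNA and MRPL45 by -2.50 ± 0.10 with CXCL14 siRNA. The part of the ribosomal protein genes' rise in the results was not tested.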

How the data were processed

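RNA-seq was read from 12 libraries, 3 for each of 4 siRNAs. Per the submitters' processing notes the authors aligned reads with HISAT2 2.0.5 to hg38 and made the deposited counts per gene with featureCounts 1.5.0-p3. The deposited FPKM values were computed by the authors from these data, per the file headers, and were used for levels between genes and in alternatives with limma 3.58.1, on log2(FPKM + 1) and log2(FPKM + 0.1). Whether strand was used in counting is not known here.

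Groups came from the sample labels. Counts were filtered with filterByExpr, scaled by TMM and fitted over all 12 libraries with edgeR 4.0.16 (quasi-likelihood, two-sided) in R 4.3.3. P-values were adjusted by Benjamini-Hochberg over all 14920 tested genes, a call is an adjusted p below 0.05, and SE is the log2 change over the root of F. CPM are TMM-scaled. The scripts were tested on simulated data. Alternatives included DESeq2 1.42.0, other scalings and filters, and leaving out each library. An adjusted p given for other settings is the highest over all alternatives, so it can come from edgeR, DESeq2 or limma. Replicates of a group differed by 4.53 to 17.2 times the counting variance, so none was counted as a duplicate.

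The members and gene lists were chosen with earlier results of these data known. Named were the 13 MT genes, up to 4 called nuclear genes per complex and comparison with the smallest adjusted p, up to 2 called per direction in comparisons of targeting siRNAs and per list, fixed isoform families, and the targets. The remaining named values (complex II, ATP5MC3, ATP5IF1, NDUFA7, the 14 shared genes, and others of genes already named) were chosen after their values were seen.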

Additional observations from a re-analysis of the deposited data

Results flagged for a closer look

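These genes were called in opposite directions against the control with different siRNAs, and the direct comparison of those siRNAs was called too. The direct comparison is the difference of those changes in the same fit, so its call is no separate support. ATP5MF had a log2 difference of 2.16 for ATF3 siRNA over APOE siRNA and -2.23 for APOE siRNA over CXCL14 siRNA. ATP5PF had 0.82 and -0.78 in the same comparisons. ATP5F1B, highest with APOE siRNA, had 0.41 for ATF3 siRNA over CXCL14 siRNA and 0.55 for APOE siRNA over CXCL14 siRNA. ATP5MC1 had 0.96 for ATF3 siRNA over CXCL14 siRNA. UQCRFS1 had 0.62 and SDHC -0.41 for APOE siRNA over CXCL14 siRNA. Of the MT genes, MT-CO1 had -0.44 for ATF3 siRNA over APOE siRNA and 0.47 for APOE siRNA over CXCL14 siRNA, and MT-CYB had -0.74 for ATF3 siRNA over APOE siRNA.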

How the results depend on the processing

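Of 211 named results, 149 kept their direction and call in every alternative and 62 differed in at least 1. Nuclear genes called lower with ATF3 siRNA went from 0 to 1 under the replicate block, the stricter filter, no filter, library size alone and both uses of DESeq2 (its size factors, its Wald test). With library size alone, nuclear genes called lower became 6 with APOE siRNA, 3 with CXCL14 siRNA and 42 for ATF3 over CXCL14 siRNA, MT genes called lower became 1 with CXCL14 siRNA and 6 for ATF3 over CXCL14 siRNA, and for APOE over CXCL14 siRNA nuclear higher became 7, MT higher 2 and MT lower 1. The nuclear sum on the log2 scale (0.21, 0.25 and 0.21 for ATF3, APOE and CXCL14 siRNA) became 0.17, 0.19 and 0.27 with library size alone and 0.17, 0.19 and 0.27 as a share of protein-coding counts. With no filter, MT higher with APOE siRNA became 6, MT lower with CXCL14 siRNA 8, MT higher for ATF3 over CXCL14 siRNA 1, and nuclear higher for APOE over CXCL14 siRNA 9. With only the groups compared, MT lower became 4 with ATF3 siRNA and 5 with CXCL14 siRNA. With limma, MT lower with ATF3 siRNA became 1 at both pseudocounts, MT lower with CXCL14 siRNA 0 at a pseudocount of 1 and 1 at 0.1, and MT higher for APOE over CXCL14 siRNA 2 at both. The cause of these shifts was not tested.

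Same-numbered libraries correlated at -0.021 to 0.234, over 0.1 in 11 of 18 pairs, and other pairs at -0.238 to 0.1. Of 12 libraries 10 correlated best with their own number, a hint of pairing from the data and not the design. Since the labels name no shared source and 7 pairs were not over 0.1, the fit without the block was kept. With the replicate block MT higher with APOE siRNA became 5 and MT lower with CXCL14 siRNA 6.

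Leaving out 1 library gave these ranges for ATF3, APOE and CXCL14 siRNA over the control: nuclear higher 18 to 32, 33 to 37 and 42 to 48, nuclear lower 0 to 1, 2 to 3 and 3 to 4, MT higher 0 to 0, 1 to 7 and 1 to 2, MT lower 1 to 8, 0 to 1 and 1 to 6, nuclear sum 0.19 to 0.23, 0.23 to 0.27 and 0.18 to 0.23, and MT sum -0.32 to -0.16, 0.11 to 0.26 and -0.21 to -0.05. For ATF3 over APOE, ATF3 over CXCL14 and APOE over CXCL14 siRNA they were nuclear higher 7 to 16, 7 to 12 and 9 to 13, nuclear lower 6 to 10, 13 to 20 and 16 to 22, MT higher 0 to 0, 0 to 1 and 3 to 9, and MT lower 8 to 11, 2 to 3 and 0 to 0.

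Uncalled values near 0 changed sign. With library size alone MT-CO2 with APOE siRNA was -0.0303 and NDUFS1 with ATF3 siRNA -0.0076. Without 1 library, values with APOE siRNA ran from -0.0255 to 0.2682 for MT-ATP6, -0.0393 to 0.1171 for MT-CO2, -0.2751 to 0.0137 for MT-ND6, -0.0706 to 0.004 for NDUFS1 and -0.0613 to 0.038 for ATF3. With ATF3 siRNA they ran from -0.0591 to 0.0115 for MT-ND1, -0.1701 to 0.089 for MT-ND3 and -0.0161 to 0.0808 for NDUFS1, and with CXCL14 siRNA from -0.0084 to 0.1886 for MT-CYB and -0.1824 to 0.0019 for MT-ND4.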
